A study of Mus musculus with 2 samples.

Results

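The genes of the laminin chains, the nidogens and the integrin subunits were described in tdTomato+ cells of mouse skeletal muscle. They were found by gene symbol in the lists of both libraries, and no measured value entered the choice. All 31 genes were listed, out of 28001 features, and each had at least 1 UMI (unique molecular identifier, a count of 1 captured transcript) in each library. They comprise 5 laminin α chains, 3 β chains and 2 γ chains, 2 nidogens, 12 integrin α subunits, 6 integrin β subunits, and Itgbl1, an integrin β-like protein that is secreted.

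Laminins are trimers of an α, a β and a γ chain that assemble into the sheet of the basement membrane, and nidogens link that sheet to the collagen IV network. Integrins are dimers of an α and a β subunit that span the cell membrane and hold cells to laminin, collagen, fibronectin and other ligands. The laminin α2 chain surrounds myofibres and Schwann cells, and its loss causes a congenital muscular dystrophy. The α4 and α5 chains are known from vessel walls, and integrin α6β4 is known as the laminin receptor of hemidesmosomes.

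Single-cell RNA-seq (scRNA-seq) of 2 droplet libraries was used, 1 per labelling time. Both came from C57BL/6J mice with the genotype Hic1CreERT2/CreERT2; Rosa26LSLtdTomato/tdTomato, in which CreERT2 sits at Hic1 and tamoxifen (TAM) turns on tdTomato in Hic1+ cells and in their later progeny. In the E10-P56 library, TAM was given by gavage at embryonic day 10, as 1 dose of 7.5 mg, and muscle was taken at postnatal day 56. The adult pulse library came from mice given 5 doses of 2.5 mg TAM, on consecutive days, when 8 weeks old. The labels give postnatal day 56 for that collection too, whereas the study's methods place it after the adult doses. According to the methods, muscles were pooled, dissociated with enzymes and sorted for tdTomato+ cells without blood and endothelial surface markers. With 1 library per labelling time and no animals told apart, no test was possible. Every interval given here is an exact 95% interval that covers counting error only. Amplification and the animals are not part of it.

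After filtering, 6087 cells of E10-P56 (median 7648 UMIs) and 8567 cells of the adult pulse (median 7344 UMIs) were kept, and 11 kept cells carried a barcode found in both libraries. Cells were clustered without the 31 genes and named by marker genes. Populations are called fibroblast-like, tenocyte-like and so on, because the names were rebuilt here. In E10-P56 there were 4120 fibroblast-like, 217 tenocyte-like, 430 pericyte-like, 217 vascular smooth muscle cell (VSMC)-like, 177 perineurial-like, 140 Schwann-like and 60 endoneurial-like cells. A further 245 cells were named after the smooth muscle cell progenitor (SMCP) markers. The adult pulse had 5680 fibroblast-like, 566 tenocyte-like, 396 pericyte-like, 137 SMCP-like and 152 endoneurial-like cells. It had only 26 VSMC-like, 36 perineurial-like and 21 Schwann-like cells, too few for a comparison at the minimum of 50 cells. The SMCP name was weak. Its own marker list summed to 3356 CPM (UMIs scaled to a common total in each population) in SMCP-like cells against 6275 CPM in pericyte-like cells of E10-P56, and those cells also held 9784 CPM of pericyte and 8540 CPM of VSMC markers. They were therefore intermediate between the other mural populations. The endoneurial name was weak too, and each of its clusters was named by 3 of 4 markers. That list summed to 839 CPM in E10-P56 and 593 CPM in the adult pulse, beside 44078 and 66876.5 CPM of fibroblast markers. With a mitochondrial limit of 5%, 11 and 14 cells took the name, and with each library clustered alone 57 and 0. In tenocyte-like cells the satellite cell list summed to 1880 CPM in E10-P56 and 1134 CPM in the adult pulse. All of it was Chodl, and the other 4 markers (Pax7, Myf5, Myod1 and Calcr) were at 0 UMIs.

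Because expression differed so much between populations, the promoters of 3 genes are shown. Lama2, which encodes the α2 chain, was the only 1 of 21 members matched in the RefSeq table (build GRCm38.p6, 250 bases before to 50 after the start) whose promoter held a CArG box, the binding motif of serum response factor. The gene lies at chr10:26980036-27619758 on the minus strand, and its promoter at chr10:27616893-27617192, since the RefSeq start lies inside the GENCODE M21 gene. Itga8 and Itgb1, whose products pair as α8β1 and were high in VSMC-like cells, are shown for contrast, since Lama2 was low there. Capitals mark the CArG box in Lama2 and every CG in the other two. Itga8 lies at chr2:12106632-12301922 on the minus strand, with its promoter at chr2:12301895-12302194. Itgb1 lies at chr8:128685654-128733200 on the plus strand, with its promoter at chr8:128685404-128685703.
Lama2: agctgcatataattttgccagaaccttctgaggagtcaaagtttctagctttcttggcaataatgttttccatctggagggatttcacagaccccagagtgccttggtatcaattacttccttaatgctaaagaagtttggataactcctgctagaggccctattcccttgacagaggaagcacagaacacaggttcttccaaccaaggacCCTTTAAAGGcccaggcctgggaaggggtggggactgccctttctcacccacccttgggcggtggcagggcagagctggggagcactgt
Itga8: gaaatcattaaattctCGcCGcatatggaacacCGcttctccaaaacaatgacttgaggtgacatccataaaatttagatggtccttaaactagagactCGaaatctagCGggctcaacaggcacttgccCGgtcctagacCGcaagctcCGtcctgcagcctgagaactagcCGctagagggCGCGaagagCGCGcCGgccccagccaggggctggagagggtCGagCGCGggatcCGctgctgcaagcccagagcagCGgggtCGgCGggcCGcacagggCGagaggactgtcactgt
Itgb1: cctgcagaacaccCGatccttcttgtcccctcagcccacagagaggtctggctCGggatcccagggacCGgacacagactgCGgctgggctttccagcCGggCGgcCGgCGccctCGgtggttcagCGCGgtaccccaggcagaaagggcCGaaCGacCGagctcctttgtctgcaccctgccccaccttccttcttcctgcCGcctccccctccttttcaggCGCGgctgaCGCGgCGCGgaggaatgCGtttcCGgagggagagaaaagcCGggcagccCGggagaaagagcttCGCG
The CArG box was searched by name on both strands, and 1.63% of 32851 promoters held it. The box in Lama2 spans positions -39 to -29 before the start. The Lama2 promoter held 1 CG, Itga8 held 23 and Itgb1 held 27, against a median of 7 over all promoters (quartiles 3 and 20). GGGCGG, the GC box, occurred in 12 of the 21 members and in 35.7% of all promoters, and TATAAA in 0 members and in 13.6% of all promoters. The GC box of Lama2 lies outside the CArG box. A motif match is a description of these letters and was not tested for binding.

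Levels are summed UMIs of a population as CPM. These 3′ counts do not scale with transcript length. Whether different genes were captured equally well was not tested, so levels and chain shares compare counts of captured transcripts only. The transcripts of the 31 genes made up 3746 CPM of fibroblast-like and 5427 CPM of perineurial-like cells in E10-P56, and tenocyte-like and mural cells lay between 3317 and 4122 CPM. A lower CPM of a gene and a larger share of other transcripts in the same cells cannot be told apart.

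**Figure D1:**
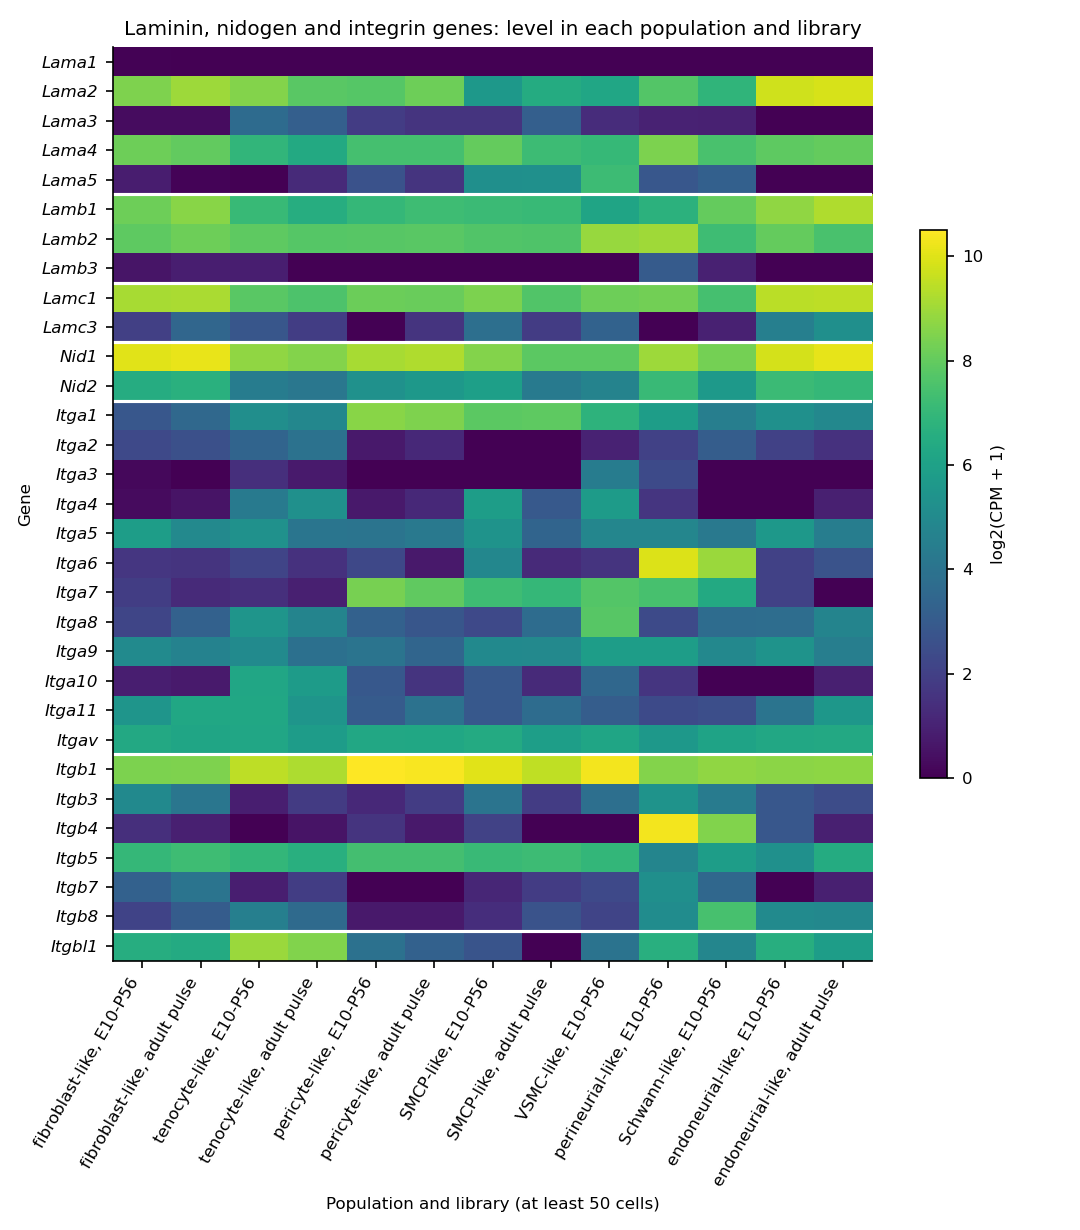
Level of each of the 31 genes (rows) in each population and library with at least 50 cells (columns), as log2(CPM + 1) by colour. Nid1, Lamc1 and Itgb1 were high in every column, whereas Itga6 and Itgb4 stood out in the perineurial-like and Schwann-like columns, and Lama1 was at or near 0 throughout.

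Among the α chains, Lama2 and Lama4 made up nearly all laminin α transcripts of fibroblast-like cells, in which α5 was almost missing. In E10-P56, Lama2 was at 361 CPM (355 to 366) and Lama4, the α4 chain, at 291 CPM (286 to 297). Lama2 took 55.2% (54.6 to 55.8) and Lama4 44.6% (44.0 to 45.2) of the α chain UMIs. The adult pulse had Lama2 at 495 CPM (489 to 502), which was 66.3% (65.8 to 66.8) of the α chain UMIs. The share of Lama2 differed between the clusters within the fibroblast-like name. In E10-P56 it was 62.4% (61.5 to 63.3) in the Aldh1a2-led cluster of 1261 cells, but 47.3% (46.3 to 48.3) in the largest cluster, of 1535 cells, and 49.5% (48.1 to 51.0) in that of 785 cells. It was lowest, at 36.2% (22.7 to 51.5), in a Fabp5 and Cnn1-led cluster of 118 cells with a median of 2337.5 UMIs. The leading genes of this cluster against all other cells included Cnn1, Actg2, Tagln and Acta2, which are VSMC markers. Whether it holds mixed or mural cells was not tested. The adult clusters lay between 56.6% and 71.7%.

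Endoneurial-like cells were named after the fibroblasts of the nerve interior, with the limits given above. They had the highest Lama2 level of the named populations, 851 CPM (753 to 959) in E10-P56 and 936 CPM (879.9 to 995) in the adult pulse. Lama2 took 78.3% and 78.1% of their α chain UMIs. Tenocyte-like cells were next by share, at 73.9% (70.2 to 77.4) and 71.5% (69.1 to 73.9), and their intervals overlapped with the endoneurial-like interval of E10-P56. Pericyte-like cells held 54.5% (50.4 to 58.6) and 62.6% (58.9 to 66.2), and the interval of E10-P56 includes the fibroblast-like value.

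The order turned in the other mural populations. SMCP-like cells of E10-P56 held 47.1 CPM (38.9 to 56.4) of Lama2 and 257 CPM (237 to 277) of Lama4, so that Lama4 took 74.9% (71.8 to 77.8) of the α chains and Lama2 13.7% (11.5 to 16.2). The adult shares were 52.7% (45.6 to 59.6) and 30.9% (24.7 to 37.7). VSMC-like cells of E10-P56 held Lama5, the α5 chain of vessel walls, at 145 CPM (129 to 163) and 41.2% (37.6 to 45.0) of the α chains. SMCP-like cells held less of it, 37.0 CPM (29.8 to 45.4) in E10-P56 and 37.8 CPM (25.1 to 54.6) in the adult pulse, and pericyte-like cells 5.23 CPM (2.26 to 10.3). Fibroblast-like cells held 0.796 CPM (0.548 to 1.12), so the level followed the order VSMC, SMCP, pericyte and fibroblast. With a mitochondrial limit of 5%, 1 cluster took the SMCP-like and VSMC-like cells together under the VSMC name, and its Lama5 share was 16.2%.

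Lama2 in VSMC-like cells, 74.0 CPM (62.5 to 86.9), was 20.5% of its fibroblast-like level. The 12 fibroblast markers lay between 13.6% (Cd34) and 25.4% (Col15a1) of their fibroblast-like level in the same cells, with a median of 15.9%. Lamb1 (23.8%), Nid1 (21.7%), Itga11 (17.2%) and Itgbl1 (16.0%) lay in that range too, whereas Lama4 (45.3%), Lamc1 (52.0%) and Lamb2 (199%) lay above it. The share of free RNA from fibroblast-like cells in these values was not tested. Without the cells of highest doublet score, the Lama2 share of VSMC-like α chains was 6.71% in place of 21.0%. In pericyte-like cells of E10-P56, Lama2 was at 58.7% of its fibroblast-like level, where the markers lay between 4.59% (Pi16) and 87.5% (Col15a1), with a median of 9.31%.

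Perineurial-like cells, which form the sheath around nerve fascicles, held 349.6 CPM (313 to 389) of Lama4 and 206 CPM (179 to 237) of Lama2. Lama4 took 62.1% (57.9 to 66.2) of their α chains. Schwann-like cells gave a similar split, with Lama4 at 59.0% (53.4 to 64.3) and Lama2 at 38.0% (32.7 to 43.5), and the intervals overlapped with the perineurial-like ones. Lama3, a chain of epithelial laminin, reached 11.9 CPM (6.52 to 20) in tenocyte-like cells of E10-P56 and 8.04 CPM (5.60 to 11.2) in the adult pulse, against 0.265 and 0.288 CPM in fibroblast-like cells. Lama1, the α1 chain of embryonic basement membrane, had 2 UMIs in the 4120 fibroblast-like cells from E10-P56, and the adult library gave 1.

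**Figure D2:**
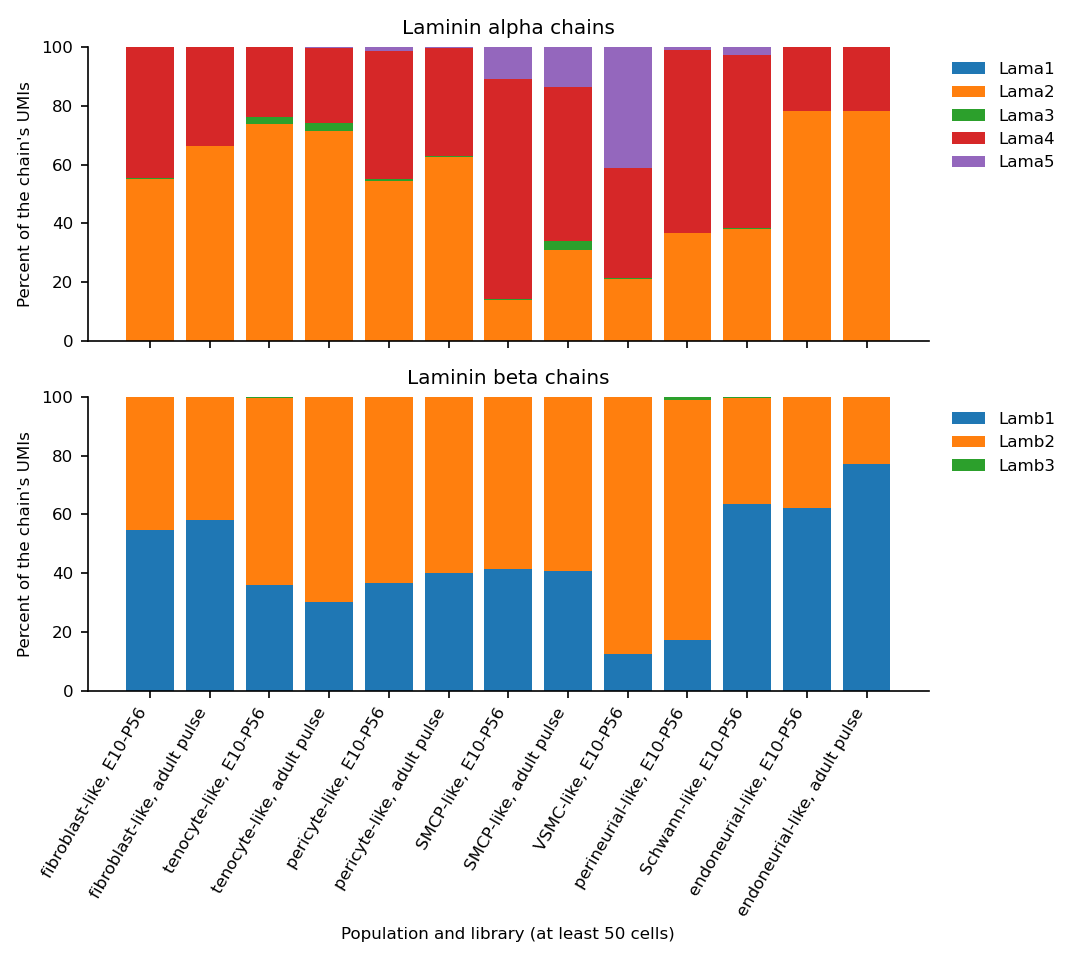
Share of each chain gene among the UMIs of all α chain genes (upper panel) and all β chain genes (lower panel), in percent, in each population and library with at least 50 cells. Lama5 took 41.2% of the α chains of VSMC-like cells, and Lamb2 took more than 80% of the β chains of VSMC-like and perineurial-like cells.

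The β chains split the populations differently. Lamb1 encodes β1 and Lamb2 β2, the chain known from vessel and synaptic basement membrane. Fibroblast-like cells of E10-P56 held 289 CPM (284 to 295) of Lamb1 and 240.2 CPM (236 to 245) of Lamb2, and Lamb1 took 54.6% (53.9 to 55.2). Its adult share was 57.9% (57.4 to 58.5). Endoneurial-like cells had 62.3% (55.5 to 68.7) and 77.2% (74.3 to 80.0), and Schwann-like cells 63.4% (58.7 to 67.9). In tenocyte-like, mural and perineurial-like cells Lamb2 was the larger. The Lamb1 share was 35.9% and 30.1% in tenocyte-like, 36.6% and 40.2% in pericyte-like, and 41.4% and 40.6% in SMCP-like cells of E10-P56 and the adult pulse.

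Lamb2 was highest in perineurial-like cells, at 515 CPM (471 to 562), followed by 478 CPM (448 to 509) in VSMC-like cells, and these intervals overlapped. It took 81.8% (78.5 to 84.7) and 87.4% (85.3 to 89.3) of their β chains. The Lamb1 share of VSMC-like cells was 12.6% (10.7 to 14.7). That small share moved with the setting, to 0.993% without the cells of highest doublet score, to 4.74% without a mitochondrial limit and to 35.4% with a limit of 5%. Lamb3, another epithelial chain, reached 7.18 CPM (2.88 to 14.8) in perineurial-like cells, from 7 UMIs, and stayed at or below 2.36 CPM in every other population of at least 50 cells.

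Lamc1, the γ1 chain, was the common partner. It took at least 91.4% of the γ chain UMIs in every population. It was highest in endoneurial-like cells, where the libraries gave 694 CPM (606 to 792) for E10-P56 and 711 CPM (662 to 762) for the adult pulse, followed by fibroblast-like cells, at 568 CPM (561 to 575) and 570.1 CPM (563 to 577). Its lowest level among the E10-P56 populations compared with fibroblast-like cells was 222 CPM (196 to 251), in tenocyte-like cells. Lamc3, the γ3 chain, was at most 36.9 CPM (26.5 to 50.1), in endoneurial-like cells of the adult pulse.

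Nid1, at 1056 CPM (1046 to 1066) in E10-P56, was the most abundant of the 31 genes in fibroblast-like cells, and the adult pulse gave 1141 CPM (1131 to 1151). Nid2 was at 90.6 CPM (87.7 to 93.5) and 102 CPM (98.8 to 105). Nidogen-1 is known to bind the laminin γ1 chain. In fibroblast-like cells of E10-P56 thinned to 1500 UMIs each, Lamc1 was found in 58.6% of the cells with Nid1 and in 42.9% of those without it. The adult pulse gave 56.2% and 39.3%. The clusters within the fibroblast-like name differed in both genes, and the Aldh1a2-led cluster of E10-P56 was highest for each. The gap was not measured within clusters. Perineurial-like cells showed no such gap, with 41.2% and 41.3%. Endoneurial-like cells gave 56.8% and 65.2% in E10-P56, and 53.5% and 49.0% in the adult pulse. In the mural populations the share was higher in cells with Nid1. Nid2 was highest in perineurial-like and endoneurial-like cells, at 138 CPM (116 to 164) and 141 CPM (103 to 189), intervals that overlapped.

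Within the fibroblast-like cells the split between the β chains varied with the cluster. Cluster numbers are arbitrary, and each cluster is named here by genes that lead it. In the adult pulse, the Smoc2 and Lrrtm3-led cluster (2355 cells) held 727 CPM of Lamb1, and Lamb1 took 78.5% (77.9 to 79.1) of its β chains. The Smpd3-led cluster (1437 cells) held 205 CPM, a share of 33.3% (32.2 to 34.4). The Fmo2-led cluster (457 cells) held 82.8 CPM, a share of 16.2% (14.4 to 18.0). The Lamb1 level thus ranged 8.78-fold (7.78 to 9.94) over the adult clusters, and Lamb2 2.16-fold (2.03 to 2.30).

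The same kind of spread was seen in E10-P56. The Aldh1a2-led cluster (1261 cells) had a Lamb1 share of 68.3% (67.3 to 69.3), the Krtdap and Dmkn-led cluster (1535 cells) 38.8% (37.7 to 39.9), and the Fmo2-led cluster (123 cells) 18.0% (14.6 to 21.9). In this last cluster the values of the libraries, 18.0% and 16.2%, had overlapping intervals. In the Cfd and Car3-led cluster they did not, with 66.5% (65.0 to 68.0) in E10-P56 (785 cells) and 41.7% (39.8 to 43.7) in the adult pulse (611 cells). The Clu and Hmcn1-led cluster gave 39.1% (36.1 to 42.1) and 35.7% (34.0 to 37.5).

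**Figure D3:**
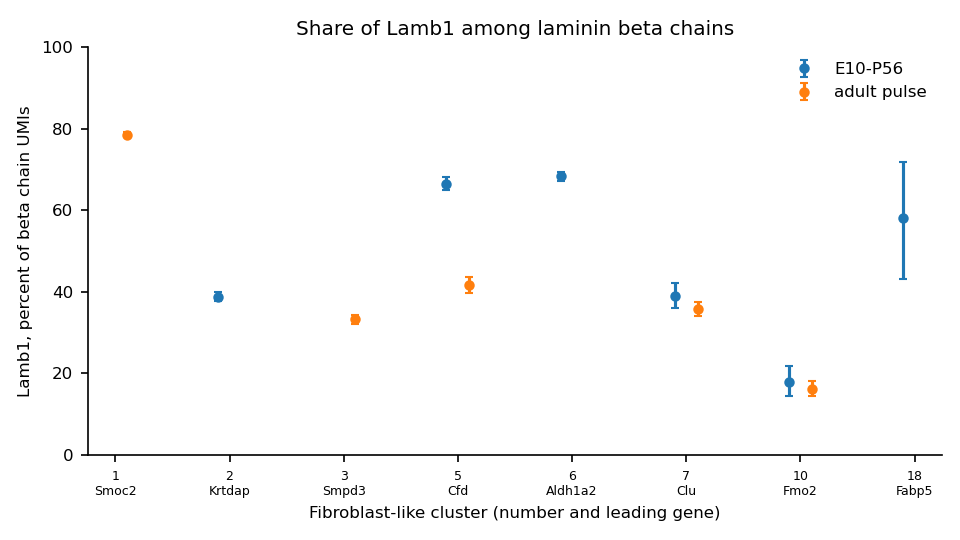
Lamb1 as a percent of all laminin β chain UMIs in each fibroblast-like cluster with at least 50 cells of a library, with exact 95% intervals; points are coloured by library and clusters carry a number and their leading gene. Shares run from 16.2% to 78.5%, and the Fmo2-led cluster was lowest in both libraries.

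Several other members followed these clusters. In the adult pulse, Lama2 (736 CPM), Lamc1 (809 CPM), Nid2 (179 CPM) and Itga8 (16.2 CPM) were each highest in the Smoc2 and Lrrtm3-led cluster. Lamc3 was at 23.2 CPM there and at 0.440 CPM in the Smpd3-led cluster, a ratio of 52.7 (22.4 to 163). In E10-P56 the Aldh1a2-led cluster was the highest for Lama2 (657 CPM), Lama4 (395 CPM), Lamb1 (549 CPM), Lamc1 (940.3 CPM), Nid1 (1458 CPM) and Nid2 (159 CPM). Itgb7, the β partner of α4 in leukocytes, went the other way. It was at 59.7 CPM in the adult Smpd3-led cluster and at 19.0 CPM in the Krtdap and Dmkn-led cluster of E10-P56, and at most 1.25 CPM in every other fibroblast-like cluster. Itgbl1 was highest in the Fmo2-led cluster, with 283 CPM in E10-P56 and 233 CPM in the adult pulse, 7.95-fold (6.77 to 9.34) and 6.90-fold (5.90 to 8.11) over the lowest cluster. An unnamed adult cluster led by Pcsk6, Cd55 and Stmn4 (1407 cells) carried most fibroblast markers and held 1843 CPM of Nid1, 125 CPM of Itga11 and 26.7 CPM of Itgb7. Its Lamb1 share was 50.8% (49.7 to 51.9).

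The integrins separated the mural populations from fibroblast-like cells. Itgb1, the common β subunit, was at 347 CPM (341 to 353) in fibroblast-like cells of E10-P56 and at 1459.9 CPM (1400.0 to 1522) in pericyte-like, 1049 CPM (1009 to 1089.7) in SMCP-like and 1282 CPM (1232 to 1332) in VSMC-like cells. Itga1, which pairs with β1 as a receptor for collagen IV and laminin, was at 6.2 CPM (5.47 to 7.01) in fibroblast-like cells. It reached 404 CPM (372 to 437) in pericyte-like, 230.5 CPM (212 to 250.2) in SMCP-like and 111.5 CPM (97.3 to 127) in VSMC-like cells, 3 levels with intervals that did not overlap. Itga7, the laminin-binding α subunit known from myofibres and vessels, was at 2.75 CPM (2.27 to 3.30) in fibroblast-like cells. Its mural levels were 325 CPM (297 to 355), 152 CPM (137 to 168) and 206 CPM (187 to 227) in the same order.

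Counts of members past 2-fold were set beside the share of all features that passed the same rule, a CPM ratio of at least 2 or at most 0.5 among features with a mean of at least 10 CPM. The mean is over both populations, so a gene near 0 in 1 of them passes only if high in the other. Its call is then fixed by the filter. Among members called higher below, this held in E10-P56 for Lama5, Itga1, Itga3, Itga4, Itga6, Itga7, Itga8, Itga10, Itgb4 and Itgb8. Among members called lower in E10-P56, it held at least for Itgb3 in pericyte-like and tenocyte-like cells. It held as well for Itga11 and Itgbl1 in SMCP-like cells and for Itga11 in perineurial-like cells. Such calls describe levels and are no further support. Of the 31 genes, 17 passed that filter in pericyte-like against fibroblast-like cells of E10-P56. Itga1 (65.1-fold, 56.2 to 75.6), Itga7 (118-fold, 96.3 to 146) and Itgb1 (4.21-fold, 4.02 to 4.40) were higher, where 18.8% of all features were. The 7 lower ones were Lamb1, Nid2, Itga5, Itga9, Itga11, Itgb3 and Itgbl1, where 12.2% of all features were lower. The median log2 ratio was -0.93 over the 17 genes and 0.34 over all features. For the adult library 16 genes passed the filter. The 3 higher ones were again Itga1 (33.4-fold), Itga7 (175-fold) and Itgb1 (3.83-fold), against 15.2% of all features, and 6 were lower, against 10.3%. Lamb1, Nid2, Itga9, Itga11 and Itgbl1 were lower in both libraries. With a minimum of 3000 UMIs, the pericyte-like and SMCP-like cells fell into 1 cluster under the pericyte name, and the ratio of Itga9 was 0.864 in place of 0.496, that of Itgb3 0.389 in place of 0.042 and that of Itga5 0.575 in place of 0.274.

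In SMCP-like against fibroblast-like cells of E10-P56, 20 genes passed the filter, 6 were higher (10.4% of all features) and 5 lower (10.1%). The higher ones were Lama5 (46.5-fold, 30.9 to 71.4), Itga1 (37.2-fold), Itga4 (233-fold, 123 to 497), Itga6 (13.0-fold, 9.35 to 17.9), Itga7 (55.1-fold) and Itgb1 (3.02-fold). Itga4, the α subunit that pairs with β1 for fibronectin and Vcam1, was at 56.3 CPM (47.4 to 66.5) against 0.241 CPM (0.116 to 0.444). Lama2, Lamb1, Nid1, Itga11 and Itgbl1 were lower. Adult SMCP-like cells gave 18 genes past the filter, with 4 higher (13.3% of all features) and 8 lower (9.46%). Lama5, Itga1, Itga7 and Itgb1 were higher in both libraries, and all 5 lower genes of E10-P56 were lower again. The adult Lama5 ratio of 568 (175 to 2919) rests on 3 UMIs in fibroblast-like cells. Itgbl1 had 0 UMIs in adult SMCP-like cells, where 3 UMIs would be 4.05 CPM.

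VSMC-like against fibroblast-like cells of E10-P56 gave 21 genes past the filter, 7 higher (13.1% of all features) and 9 lower (13.5%). Itga8, the subunit that pairs with β1 as the receptor for nephronectin, was at 217 CPM (197 to 239) against 3.52 CPM (2.97 to 4.14), a ratio of 61.7 (51.1 to 75). Among the mural populations this high level was found in VSMC-like cells, with 4.02 CPM (1.93 to 7.4) in SMCP-like and 8.49 CPM (4.52 to 14.5) in pericyte-like cells. Itga3, a laminin α5 receptor subunit, was at 20.5 CPM (14.7 to 27.8), a ratio of 121 (53.9 to 320.5) over 7 UMIs in fibroblast-like cells. Lama5 (183-fold, 127 to 270), Itga4 (220-fold), Itga7 (74.9-fold), Itga1 (18.0-fold) and Itgb1 (3.69-fold) were the other higher genes. Lama2, Lama4, Lamb1, Nid1, Nid2, Itga5, Itga11, Itgb3 and Itgbl1 were lower, and Lamb2, at 1.99-fold, lay just inside the limit. With the mitochondrial limit of 5% that merged these cells with SMCP-like cells, the ratio of Itga8 was 9.87, that of Itga3 15.4 and that of Lama5 69.9. The median mitochondrial share was 6.81% in VSMC-like and 2.33% in fibroblast-like cells.

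Pairs of subunits were read in the same cells. Each cell was thinned to 1500 UMIs, since depth differed between populations, and values without thinning are given for the main pairs. In pericyte-like cells Itga1 and Itgb1 were found together in 37.4% (32.9 to 42.2) of 430 cells of E10-P56. The 396 cells of the adult pulse gave 39.9% (35.0 to 44.9). The share was 24.5% (19.2 to 30.4) and 15.3% (9.75 to 22.5) in SMCP-like cells and 12.0% (7.98 to 17.1) in VSMC-like cells. In fibroblast-like cells, where its level was low, Itga1 was found in 1.19% of thinned cells and in 5.34% without thinning, at a median of 8430.5 UMIs. Pericyte-like cells had a median of 3140.5 UMIs, and without thinning α1β1 was found in 64.0% of them in E10-P56.

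The α7β1 pair was found in 32.3% (27.9 to 37.0) and 27.3% (22.9 to 31.9) of pericyte-like cells, in 24.4% (18.9 to 30.7) of VSMC-like, in 15.5% (11.2 to 20.7) and 13.1% (7.98 to 20) of SMCP-like and in 11.3% (7.04 to 16.9) of perineurial-like cells. Itga7 alone was in 0.413% of fibroblast-like cells of E10-P56. In pericyte-like cells Itga1 and Itga7 did not mark separate cells. Both were found in 12.8% of E10-P56 and 14.4% of adult pulse cells, and Itga7 was in 31.4% of the cells with Itga1 and 40.8% of those without it in E10-P56, and in 32.0% and 30.3% in the adult pulse. The α8β1 pair was found in 20.7% (15.5 to 26.7) of VSMC-like cells and in 1.86% (0.807 to 3.63) of pericyte-like cells. Itga7 and Itga8 were found together in 9.22% of VSMC-like cells. With a mitochondrial limit of 5%, α8β1 was found in 3.36% and α7β1 in 13.0% of the merged VSMC-like cells.

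**Figure D4:**
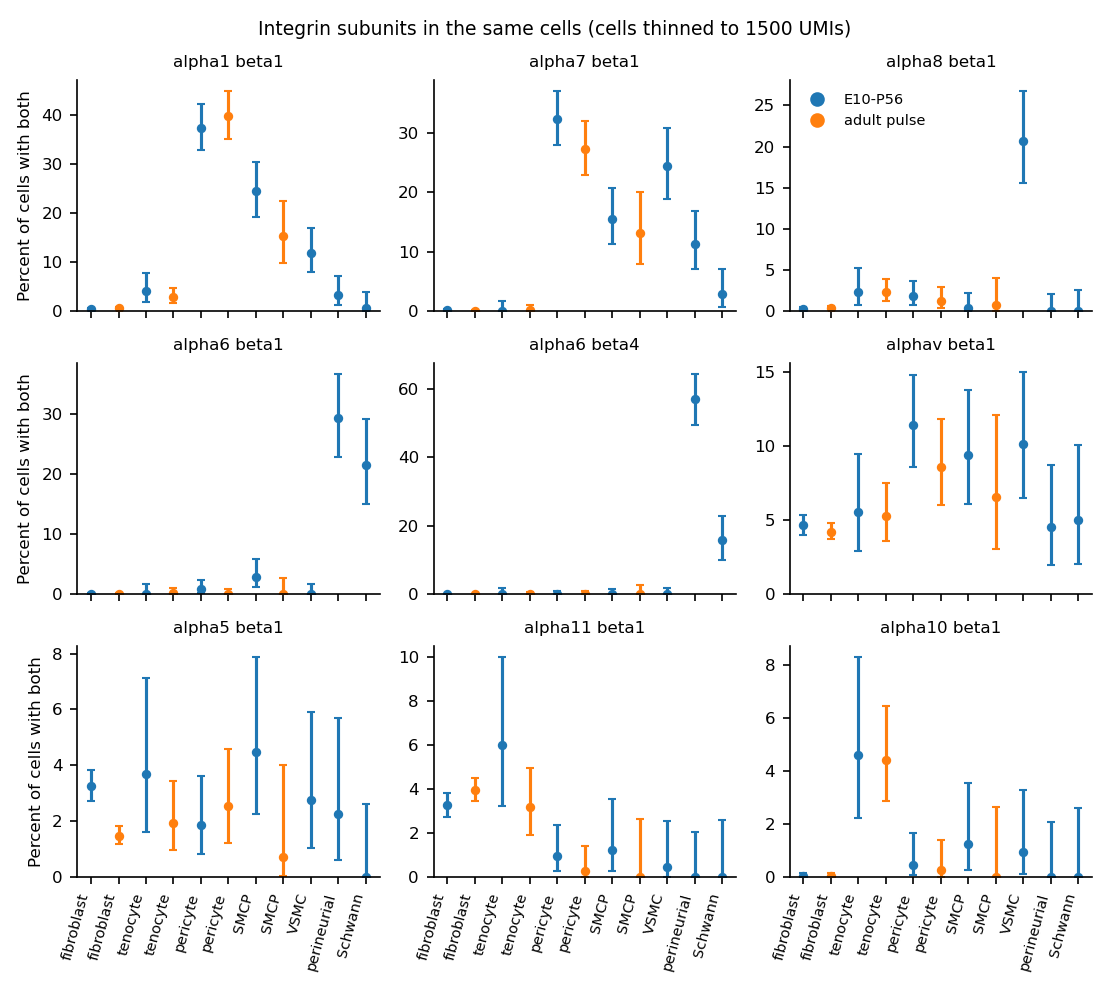
Percent of cells in which the α and the β subunit of an integrin were both found after thinning to 1500 UMIs, with exact 95% intervals, by population; blue points are E10-P56 and orange points the adult pulse. The α1β1 points of pericyte-like cells lie at 37.4% and 39.9%, and the α6β4 point of perineurial-like cells lies at 57.1%.

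Perineurial-like cells carried the other laminin receptor, α6β4. Itga6 was at 1004 CPM (942 to 1068) and Itgb4, a β subunit that pairs with α6 alone, at 1293 CPM (1222 to 1366). Fibroblast-like cells of E10-P56 had 2.17 CPM (1.75 to 2.67) and 1.64 CPM (1.27 to 2.08). Both subunits were found in 57.1% (49.4 to 64.5) of 177 thinned perineurial-like cells and in 81.9% without thinning, and in 0 of 4120 fibroblast-like cells. That count allows up to 0.0728% of thinned cells with a UMI of both, and sets no limit on cells that express the pair. Itgb4 was found in 77.1% of the cells with Itga6 and in 39.1% of those without it. The α6β1 pair was found in 29.4% (22.8 to 36.7), and Itgb1 was at 374 CPM (337 to 415). The α4β2γ1 trimer, laminin-421, was found in 12.4% (7.96 to 18.2) of these cells.

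Schwann-like cells shared α6β4 at a lower level. Itga6 was at 486 CPM (446 to 530.2) and Itgb4 at 366 CPM (330.4 to 404), and the pair was found in 15.7% (10.1 to 22.8) of 140 cells, below the perineurial-like interval. The α6β1 pair was found in 21.4% (14.9 to 29.2). Itgb8, which pairs with αv and activates latent TGFβ, was highest in Schwann-like cells at 175 CPM (151 to 202).

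In perineurial-like against fibroblast-like cells, 21 of the 31 genes passed the filter. The 7 higher ones, against 14.1% of all features, were Lamb2 (2.14-fold, 1.95 to 2.34), Itga1 (9.26-fold), Itga6 (462-fold, 372 to 580), Itga7 (63.0-fold), Itgb4 (788-fold, 617 to 1021), Itgb7 (4.22-fold) and Itgb8 (10.1-fold, 6.68 to 14.8). The 5 lower ones, against 8.63%, were Lamb1, Nid1, Itga5, Itga11 and Itgb5. Itgb5, a partner of αv for vitronectin, was at 26.7 CPM (17.4 to 39.1) here and at 126 CPM (123 to 129.5) in fibroblast-like cells. The median log2 ratio was 0.26 over the 21 genes and 0.24 over all features. Without the cells of highest doublet score the Itgb8 ratio was 18.6.

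Tenocyte-like cells held the highest level of Itga10. This gene, which encodes the cartilage and tendon subunit that pairs with β1, was at 74.1 CPM (59.4 to 91.5) in E10-P56 and 54.2 CPM (47.5 to 61.6) in the adult pulse, against 0.820 and 0.710 CPM in fibroblast-like cells. The next level was that of osteochondral-like cells of E10-P56, with 40.1 CPM. Itgbl1 was at 492 CPM (452 to 534) and 365 CPM (348 to 384), the highest levels of the named populations. Itga8 was at 43.5 CPM (32.4 to 57.1) and 25.5 CPM (21.0 to 30.7). Itga1 was at 35.8 CPM (25.8 to 48.4) and 28.0 CPM (23.3 to 33.5).

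Of the 31 genes, 19 passed the filter in tenocyte-like against fibroblast-like cells of E10-P56. Itga1 (5.77-fold), Itga8 (12.3-fold), Itga10 (90.4-fold, 60.2 to 139), Itgb1 (2.04-fold, 1.90 to 2.19), Itgb8 (6.61-fold) and Itgbl1 (5.25-fold, 4.80 to 5.73) were higher, 6 genes where 9.23% of all features were higher. Lama4, Lamb1, Lamc1, Nid1, Nid2 and Itgb3 were lower, 6 genes where 8.47% of all features were. Adult tenocyte-like cells gave 18 genes past the filter, with 5 higher (5.83% of all features) and 6 lower (9% of all features). Itga1, Itga8, Itga10 and Itgbl1 were higher and Lama4, Lamb1, Lamc1, Nid1 and Nid2 lower in both libraries. Lama2 differed between the libraries in this contrast. It was at 374 CPM (339.9 to 410.8) in tenocyte-like cells of E10-P56, close to the fibroblast-like 361 CPM, and at 229 CPM (215 to 243) against 495 CPM in the adult pulse, a ratio of 0.461. The α10β1 pair was found in 4.61% (2.23 to 8.31) and 4.42% (2.88 to 6.45) and α11β1 in 5.99% (3.23 to 10.0) and 3.18% (1.90 to 4.98) of thinned cells. With a minimum of 3000 UMIs, α10β1 was found in 9.25% of E10-P56 cells, and without the cells of highest doublet score α11β1 was found in 1.26% of adult pulse cells. The co-detection of Itga10 and Itga11 was rare, in 1 of 217 and 1 of 566 cells.

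The laminin trimers were read in the same way. In fibroblast-like cells, the 3 chains of laminin-211 (α2β1γ1) were found together in 12.1% (11.2 to 13.2) of the cells of E10-P56, and the adult pulse gave 14.8% (13.9 to 15.7). Laminin-221 was found in 8.47% and 9.68%, laminin-411 in 10.0% and 9.68%, and laminin-421 in 7.18% and 6.21%. The partners β1 and γ1 were found in 29.5% of the E10-P56 cells with Lama2 and in 15.5% of those without it. The Aldh1a2-led cluster of E10-P56 was highest for all 3 genes, and the gap was not measured within clusters. Lama2 and Lama4 did not mark separate cells, since Lama4 was in 41.1% of the cells with Lama2 and 31.8% of those without. Lamb2 was in 31.6% and 30.2% of the cells with and without Lamb1 in E10-P56. The adult pulse gave 30.5% and 35.9%. Without the cells of highest doublet score 1 fibroblast-like cluster lost its name, and laminin-211 was found in 5.72% and laminin-411 in 5.64% of the E10-P56 cells left.

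Endoneurial-like cells had the highest share of laminin-211, 20% (10.8 to 32.3) of 60 cells and 24.3% (17.8 to 32.0) of 152 cells. In tenocyte-like and mural cells each trimer was found in at most 3.69% of cells. Laminin-521 (α5β2γ1) was found in 3.23% (1.31 to 6.53) of VSMC-like cells and in 2 of 4120 fibroblast-like cells. At 1500 UMIs a cell without a UMI of a chain may still hold its transcript, so that a trimer was not detectable in many cells at this depth.

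Of the remaining integrins, Itgav, the αv subunit, was between 47.2 and 84.1 CPM in the 6 populations of E10-P56 compared here, and Itgb5 between 122 and 165 CPM in all of them but the perineurial-like cells. The αvβ1 pair was most often found in pericyte-like cells, in 11.4% (8.55 to 14.8) and 8.59% (6.02 to 11.8). Itga5, the fibronectin receptor subunit, was at 57.2 CPM (55.0 to 59.6) in fibroblast-like cells of E10-P56 and was highest in an unnamed set of 82 cells (265 CPM) and in cycling cells (152 CPM). Itga9, which pairs with β1 for tenascin-C, was between 15.7 and 56.5 CPM in the same 6 populations. Itga11, a fibrillar collagen receptor subunit, was at 43.6 CPM (41.6 to 45.6) in fibroblast-like and 76.7 CPM (61.7 to 94.3) in tenocyte-like cells of E10-P56. Mural and perineurial-like cells of that library held at most 7.50 CPM. Itgb3 was at 31.1 CPM (29.4 to 32.8) in fibroblast-like and 41.0 CPM (29.3 to 55.8) in perineurial-like cells of E10-P56, and had 2 UMIs in pericyte-like and 1 UMI in tenocyte-like cells. Itga2 reached at most 14.5 CPM (11.1 to 18.5), in tenocyte-like cells of the adult pulse.

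Genes that work with the 31 members were counted by the same rule. In fibroblast-like cells of E10-P56, Mcam (2.85 CPM), Bcam (3.57 CPM), Npnt (0.241 CPM), Spp1 (0.531 CPM) and Tns3 (6.27 CPM) were low. They passed the filter only where high in the other population, so their higher calls were fixed by it. The lower call of Vcam1 in pericyte-like cells, at 1.96 CPM there, was fixed in the same way. Such calls are no further support. Of 7 other laminin receptors, Mcam and Bcam, the latter a receptor of laminin α5, were higher in all 3 mural populations. Against fibroblast-like cells of E10-P56, Bcam was 244-fold higher in VSMC-like (873 CPM), 73.2-fold in pericyte-like, 48.8-fold in SMCP-like and 99.3-fold in perineurial-like cells. Of the 7, 6 passed the filter in each mural population. In VSMC-like cells 2 were higher and 0 lower, where 13.1% and 13.5% of all features were. In pericyte-like cells 2 were higher and 1 lower (Sdc4, ratio 0.419), where 18.8% and 12.2% of all features were. SMCP-like cells had 3 higher and 2 lower (Sdc4, 0.137, and Sdc2, 0.273), where the shares of all features were 10.4% and 10.1%. Among 11 integrin ligands, all past the filter in VSMC-like cells, 4 were higher and 4 lower there, where 13.1% and 13.5% of all features were. The largest ratio was that of Npnt, nephronectin, at 166-fold (40.0 against 0.241 CPM). In tenocyte-like cells 10 of the 11 passed the filter. Of these, 5 were higher and 3 lower, where 9.23% and 8.47% of all features were, led by Tnc, tenascin-C, at 52.3-fold. In pericyte-like cells 8 ligands passed. Of these, 1 was higher, Vtn, vitronectin, at 36.7-fold, and 4 were lower, where 18.8% and 12.2% of all features were.

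Integrin adaptors, the proteins that tie integrin tails to actin, were counted over 16 genes, of which 13 passed the filter in each comparison. The shares of all features are those given above, with 14.1% higher and 8.63% lower for perineurial-like cells. In VSMC-like cells 8 were higher and 1 lower, in pericyte-like cells 7 and 3, in SMCP-like cells 7 and 2, and in perineurial-like cells 5 and 0. Tenocyte-like cells had 2 higher and 3 lower, where 9.23% and 8.47% of all features were. Vcl, vinculin, was 9.49-fold, 9.33-fold and 8.61-fold higher in pericyte-like, SMCP-like and VSMC-like cells. Of 12 other basement membrane genes, 8 passed the filter in each mural population, with 3 higher and 2 lower in pericyte-like, 4 and 3 in SMCP-like and 3 and 1 in VSMC-like cells. Agrn, agrin, was 7.42-fold, 8.34-fold and 8.49-fold higher in the same order. Col4a1 and Col4a2 were 2.33-fold and 2.93-fold higher in pericyte-like and 2.65-fold and 2.91-fold in SMCP-like cells, and neither passed 2-fold in VSMC-like cells. Col18a1 was 10.9-fold higher in SMCP-like and 4.06-fold in VSMC-like cells, where Ntn4 was 2.76-fold higher. Hspg2, perlecan, was lower in pericyte-like and SMCP-like cells, at ratios of 0.357 and 0.317, and so was Col4a5, at 0.201 and 0.0903. Col4a4 was lower in SMCP-like (0.142) and VSMC-like cells (0.159). At 4.02 and 4.50 CPM in these cells, its calls were fixed by the filter. In dystroglycan modification, Pomgnt1 was 2.11-fold (1.63 to 2.70) higher in VSMC-like cells.

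The libraries were compared first in fibroblast-like cells. The count of members past 2-fold there was near the share of all features, and several alternative settings gave some, as listed below. Of the 31 genes, 16 passed the filter, and 0 were past 2-fold in either direction, where 2.18% of all features were higher and 1.95% lower in the adult pulse. The largest ratios of adult pulse to E10-P56 were 1.76 for Itga11 (1.66 to 1.86) and Itgb7 (1.54 to 2), and the smallest 0.528 for Itga5 (0.493 to 0.564) and 0.534 for Itgb3 (0.488 to 0.585). Lama2 was at a ratio of 1.37 (1.35 to 1.40) and Lamb1 at 1.39 (1.35 to 1.42), whereas Lamc1 was at 1 (0.986 to 1.02). The median log2 ratio was 0.08 over the 16 genes and -0.11 over all features. The clusters behind the fibroblast-like name differed between the libraries, and the Smoc2 and Lrrtm3-led, Smpd3-led, Krtdap and Dmkn-led and Aldh1a2-led ones were each mostly of 1 library. A dissociation-response list summed to 8126 CPM in E10-P56 and 12191 CPM in the adult pulse, and its part in the differences was not tested. Labelling time, library and software version cannot be told apart.

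**Figure D5:**
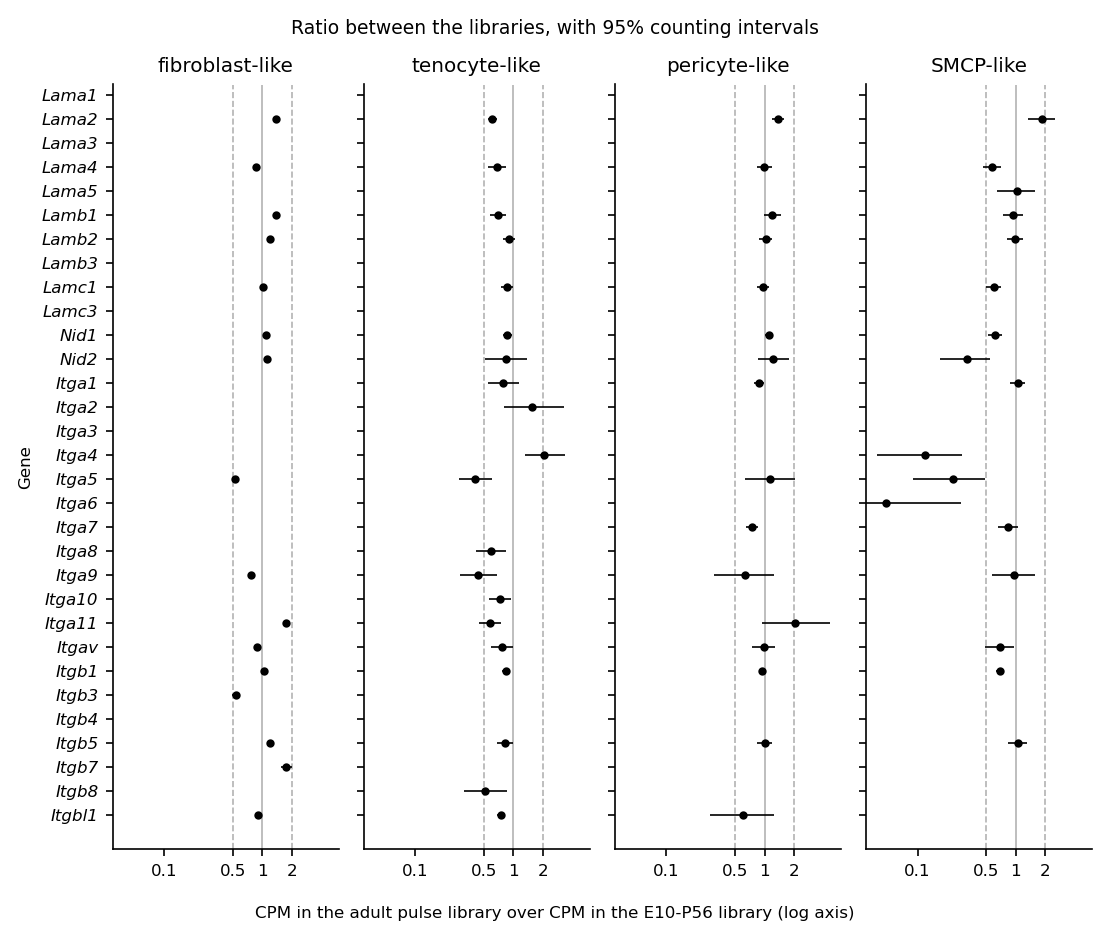
Ratio of CPM in the adult pulse to CPM in E10-P56 for the members past the filter in fibroblast-like, tenocyte-like, pericyte-like and SMCP-like cells, on a log axis with exact 95% intervals. All fibroblast-like points lie between 0.528 and 1.76, whereas Itga4, Itga5, Itga6 and Nid2 lie below 0.5 in SMCP-like cells.

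In tenocyte-like cells 20 genes passed. Itga4 was higher in the adult pulse at a ratio of 2.03 (1.30 to 3.33), where 2.84% of all features were higher. Itga5, at 0.410 (0.279 to 0.608), and Itga9, at 0.437 (0.285 to 0.677), were lower, where 7.86% of all features were lower. The median log2 ratio was -0.41 over the 20 genes and -0.26 over all features. Itga4 was at 18.7 CPM (11.7 to 28.4) in E10-P56 and 38.1 CPM (32.5 to 44.4) in the adult pulse. The dissociation-response list summed to 8630 and 13041 CPM.

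In pericyte-like cells 16 genes passed, and only Itga11 was past 2-fold, at 2.02 (0.941 to 4.62), from 11 and 22 UMIs, where 3.2% of all features were higher and 2.94% lower. Its interval includes 1. Without the cells of highest doublet score its ratio turned to 0.395. Itga1 (0.880), Itga7 (0.750) and Itgb1 (0.944) were all slightly below 1, while the dissociation-response list was at 3402 and 5315 CPM.

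In SMCP-like cells 17 genes passed, and 0 were higher, where 6.72% of all features were. The 4 lower ones, where 5.54% of all features were lower, were Itga6 (ratio 0.0479, 0.0012 to 0.276), Itga4 (0.120, 0.0383 to 0.286), Itga5 (0.228, 0.0894 to 0.487) and Nid2 (0.317, 0.169 to 0.549). Itga6 was at 28.2 CPM from 70 UMIs in E10-P56 and had 1 UMI in the adult pulse, and Itga4 was at 56.3 CPM from 140 UMIs and had 5 UMIs. Itga6 (1.35 CPM in the adult pulse) passed the filter only through E10-P56, so its lower call was fixed by the filter. Itga4 (6.75 CPM in the adult pulse) came near that. Itga1 and Lama5 differed little, with ratios of 1.05 (0.881 to 1.24) and 1.02 (0.644 to 1.57). With each cell named by its own markers, however, the Lama5 ratio was 0.363. Col18a1 (0.173), Col4a1 (0.402) and Col4a2 (0.494) were also lower in the adult pulse. Median depth was 8898 UMIs for E10-P56 and 4660 for the adult cells, and the dissociation-response list summed to 6385 and 10035 CPM. Their part in these differences was not tested.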

How the data were processed

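scRNA-seq of sorted tdTomato+ muscle cells was analysed in 2 samples, 1 per group as the labels give it. The values are the UMI counts the authors deposited, without normalization. Reads had been aligned to mm10, extended by tdTomato, CreERT2 and GFP sequences, with Cell Ranger 5.0.0 (E10-P56) or 3.0.2 (adult pulse). The versions are those in the file headers, and the genome is that of the methods.

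Of 8236 and 9195 barcodes, 1310 and 465 were dropped for holding fewer than 1500 UMIs, and 839 and 163 for a mitochondrial share over 10%. Both libraries, with 67460919 and 69153173 UMIs, were clustered together (2000 variable genes without the 31 members, 30 components, 20 neighbours, Leiden resolution 0.5). No batch correction was applied. A cluster took a name from at least 3 markers. A level minimum of 50 CPM per marker and the order among candidate names were set after seeing the clusters. Doublets were kept, since the caller marked 0.312% and 0.163%, and an alternative removed the top 5% by doublet score.

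Levels are summed counts in CPM with exact Poisson intervals, shares have Clopper-Pearson intervals, and ratios have exact conditional ones, all at 95%. UMIs are counted after amplification, so the intervals cover counting error only. A member was counted past 2-fold at a ratio of at least 2 or at most 0.5 and a mean CPM of at least 10, in populations of at least 50 cells. A count of 0 was given the limit of 3 UMIs. All 31 members are named, and of each list at most 4 genes past 2-fold per comparison, largest ratio first. Between libraries, every member past 2-fold is named. The rebuilt names need not match the study's populations. The members and lists were chosen with earlier results of these data known. The scripts were tested on simulated data. Python 3.11.15, numpy 2.4.6, scipy 1.17.1, scikit-learn 1.9.0, leidenalg 0.10.2 and scanpy 1.11.5 were used. Some results on listed genes are not reported here. Gene positions are from GENCODE M21 and promoters from RefSeq.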

Additional observations from a re-analysis of the deposited data

Results flagged for a closer look

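Itga11, the fibrillar collagen receptor subunit, moved in opposite directions in the libraries. In tenocyte-like against fibroblast-like cells its ratio was 1.76 in E10-P56 (76.7 against 43.6 CPM) and 0.572 in the adult pulse (43.9 against 76.7 CPM). Neither ratio was past 2-fold. With 1 library on each side, the difference was not tested.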

How the results depend on the processing

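The counts of members past 2-fold between populations of E10-P56 stayed within 1.5 times their value under every alternative that gave one. The counts between the libraries moved more. In fibroblast-like cells, 0 members were past 2-fold. The count was 2 with at least 3000 UMIs per cell and with the Pcsk6, Cd55 and Stmn4-led cluster counted as fibroblast-like (added after seeing the data). It was 1 without a mitochondrial limit, with a limit of 5%, without the highest doublet scores and with each library clustered alone. It was 3 at resolution 1.0, with each cell named by its own markers and with a mean CPM of at least 5. Itga11, Itgb7 and Itga5 made up these counts, except at the lower CPM minimum, where Lamc3, Itga8 and Itgb8 entered. In pericyte-like cells, the count of 1 was 5 with at least 3000 UMIs, and 0 without the highest doublet scores, at resolution 1.0 and with a mean CPM of at least 25. It stayed at 1 without a mitochondrial limit, but from Itgbl1 (0.436) in place of Itga11. With each cell named by its own markers it came from Itga4 (0.0429). In tenocyte-like cells, the count of 3 was 1 with a mitochondrial limit of 5%. In SMCP-like cells, the count of 4 was 8 with a mean CPM of at least 5. The genes changed too. With each cell named by its own markers, Lama2 was higher (2.62) and Lama5 (0.363) and Lamc3 lower in the adult pulse. Itga5 and Itga6 were then not called. Lama2 was also higher, at 2.04, without the highest doublet scores. Itga11 in pericyte-like cells was the 1 ratio that reversed, to 0.395 without the highest doublet scores. The cause was not tested.

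Of the single ratios, 839 stayed within their interval and 92 moved. For chain shares the numbers were 309 and 96, and for shares of cells with a pair 232 and 70, where thinning to 1000 UMIs and no thinning move the values by construction. Changing the CPM minimum cannot move a single ratio. The minimum of 5 and that of 25 each gave 69 of the 839 by construction. SMCP-like cells gave no value with at least 3000 UMIs or a mitochondrial limit of 5%, and none between the libraries with each clustered alone, since no cluster then took that name. No paired analysis was possible because each group has 1 library. The adult VSMC-like, perineurial-like and Schwann-like cells are limited by their number (26, 36 and 21 cells). Median depth was lower in pericyte-like cells (3140.5 and 3213 UMIs), and ratios that rest on few UMIs have wide intervals.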

Other observations

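A small set of endothelial-like cells remained in the adult pulse (52 cells), although the study's methods describe a stain against an endothelial surface marker in the sort. Their laminin α chains were mostly Lama4, at 252 CPM (189 to 329) and 61.6% of the α chain UMIs (50.5 to 71.9), with Lama5 at 85.5 CPM (50.7 to 135) and 20.9% (12.9 to 31.05). Itga6 was at 556 CPM (459.6 to 666) and Itga1 at 275 CPM (209 to 356), whereas Itgb4 had 0 UMIs, where 3 UMIs would be 14.2 CPM. In the same library Itgb4 was at 1128 CPM (974 to 1300) in 36 perineurial-like and 355 CPM (270 to 459) in 21 Schwann-like cells. Lama4 also led in the cycling cells of E10-P56 (median depth 27363 UMIs), where it took 72.3% (70.5 to 74.1) of the α chains. Osteochondral-like cells of E10-P56 (58 cells) held Itga10 at 40.1 CPM (23.3 to 64.2) and Itgbl1 at 299 CPM (249.6 to 356). The 63 of the adult pulse held Itgbl1 at 224 CPM (189.6 to 262), but Itga10 at 1.47 CPM from 1 UMI.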
